A study of Mus musculus with 4 samples.

Results

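Translation initiation and elongation factor genes were followed in CGR8 cells, a mouse embryonic stem cell line, differentiated as embryoid bodies. The set holds the 54 genes whose symbol begins with Eif1 to Eif6, Eef1 or Eef2 on spots that carry a single gene symbol, out of 14386 such genes, and they were measured by 120 of 32064 named spots. By prefix there were 4 Eif1, 12 Eif2, 12 Eif3, 11 Eif4, 1 Eif5, 1 Eif6, 10 Eef1 and 3 Eef2 genes, and among the Eef1 genes were Eef1a1 and its pseudogene Eef1a1-ps1. The prefix also takes in regulators such as the eIF2 alpha kinases, the eIF4E binding proteins and methyltransferases that modify elongation factors. Eif1, Eif2s1, Eif2b5, Eif4g1, Eif5 and Eif5b are not analysed here.

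Total RNA of embryoid bodies grown in hanging drops, the culture form in which stem cells aggregate and begin to differentiate, was taken at day 3 and at day 10. Each was hybridised on spotted arrays of 46128 spots with a second channel holding RNA of the undifferentiated CGR8 cells at day 0, and no other genotype, treatment or animal is part of the design. Each day has 2 arrays, of which the second is labelled a technical replicate, so a day counts as 1 RNA pair, the SD below covers technical error only, and no p-value can be given. CGR8 is a single established line, and embryoid bodies are mixtures of cell types, so fewer cells of a type and less RNA per cell cannot be told apart. The number of arrays limits the precision.

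The values are log2 ratios of the channels, centred on the median of each array, and the sign is the deposited one. The labels used here name neither the dyes nor the channel in the numerator, so a positive or a negative side does not state which day was higher. A ratio gives no level either, so genes are not compared with each other in abundance. Of the stem cell markers set beside the label, all 7 measured at day 3 (Pou5f1, Nanog, Sox2, Zfp42, Dppa5a, Esrrb and Klf4) were on the negative side on both arrays, with Dppa5a at -2.71 ± 0.04 (mean ± SD, n = 2 technical arrays; gene values below are given likewise). At day 10, 3 of 6 were negative on both arrays. A gene was called beyond 2-fold when both arrays of a day reached at least 1 in size (log2) with a shared sign.

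Initiation factors assemble the small ribosomal subunit, the initiator tRNA and the capped mRNA. eIF4E binds the cap, eIF4G bridges the cap to the ribosome, eIF4A unwinds the leader, eIF3 holds the small subunit, eIF2 delivers the initiator tRNA as a GTP complex, and eIF2B recharges eIF2 with GTP. Kinases that phosphorylate eIF2 alpha lower initiation under stress. In elongation, eEF1A brings aminoacyl-tRNA to the ribosome, the eEF1B subunits exchange its GDP for GTP, and eEF2 moves the ribosome along the mRNA. In mouse embryonic stem cells protein synthesis is known to be low and to rise on differentiation.

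Of the 54 genes, 3 were called on the negative side at day 3 and 1 on the positive side. The negative calls were Eef1a1, Eef1a1-ps1 and Eif3j1, a subunit that joins eIF3 loosely, and the positive call was Eif4g2, an eIF4G relative that does not bind the cap protein. Over all genes measured at day 3, 1.03% were called on the negative and 1.77% on the positive side. At day 10, 6 of 52 measured members were called on the negative side, against 1.39% of all genes, and none was called on the positive side, against 2.15%. They were Eef1a1, Eef1a1-ps1, Eif3j1, Eif3c, Eif2s3y and the methyltransferase gene Eef1aknmt. Eef1a1 and its pseudogene share sequence, so their calls are not separate measurements.

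The smaller values were also uneven at day 10. The members' median was -0.06 at day 3 and -0.28 at day 10, where the medians over all genes were 0.01 and -0.01. On the separate arrays the members' median was -0.02 and -0.08 at day 3 and -0.31 and -0.26 at day 10, so the day 10 arrays lay within 0.05 of each other and apart from the day 3 arrays. Without Eef1a1 and Eef1a1-ps1 the medians were -0.04 and -0.27. At day 10, 29 of 52 members were negative on both arrays whatever the size, where 30.8% of all genes were, and 8 were positive on both, where 30.0% were. At day 3 these counts were 19 and 16 of 54 members, against 31.8% and 32.9% of all genes.

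Brightness moved with this sign. Recovered brightness, an estimate of spot signal taken from the ratios themselves, had a median percentile of 64.0 for the members among all genes. Values that are no ratio of whole numbers up to 10000 count as bright, so ranks among the brightest genes do not order signal. With all genes split into 4 bins of brightness, the brightest bin had 49.8% of all genes and 14 of 20 members negative on both day 10 arrays. In the next bin these were 35.3% and 10 of 19, in the one below it 21.0% and 3 of 10, and in the dimmest 14.0% and 2 of 3. The median of the brightest bin at day 10 was -0.17 for all genes and -0.35 for the members. With each array's trend along brightness removed, 27 of 52 members were negative on both day 10 arrays and the median was -0.24. The part of brightness in the remaining tilt was not tested.

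**Figure D1:**
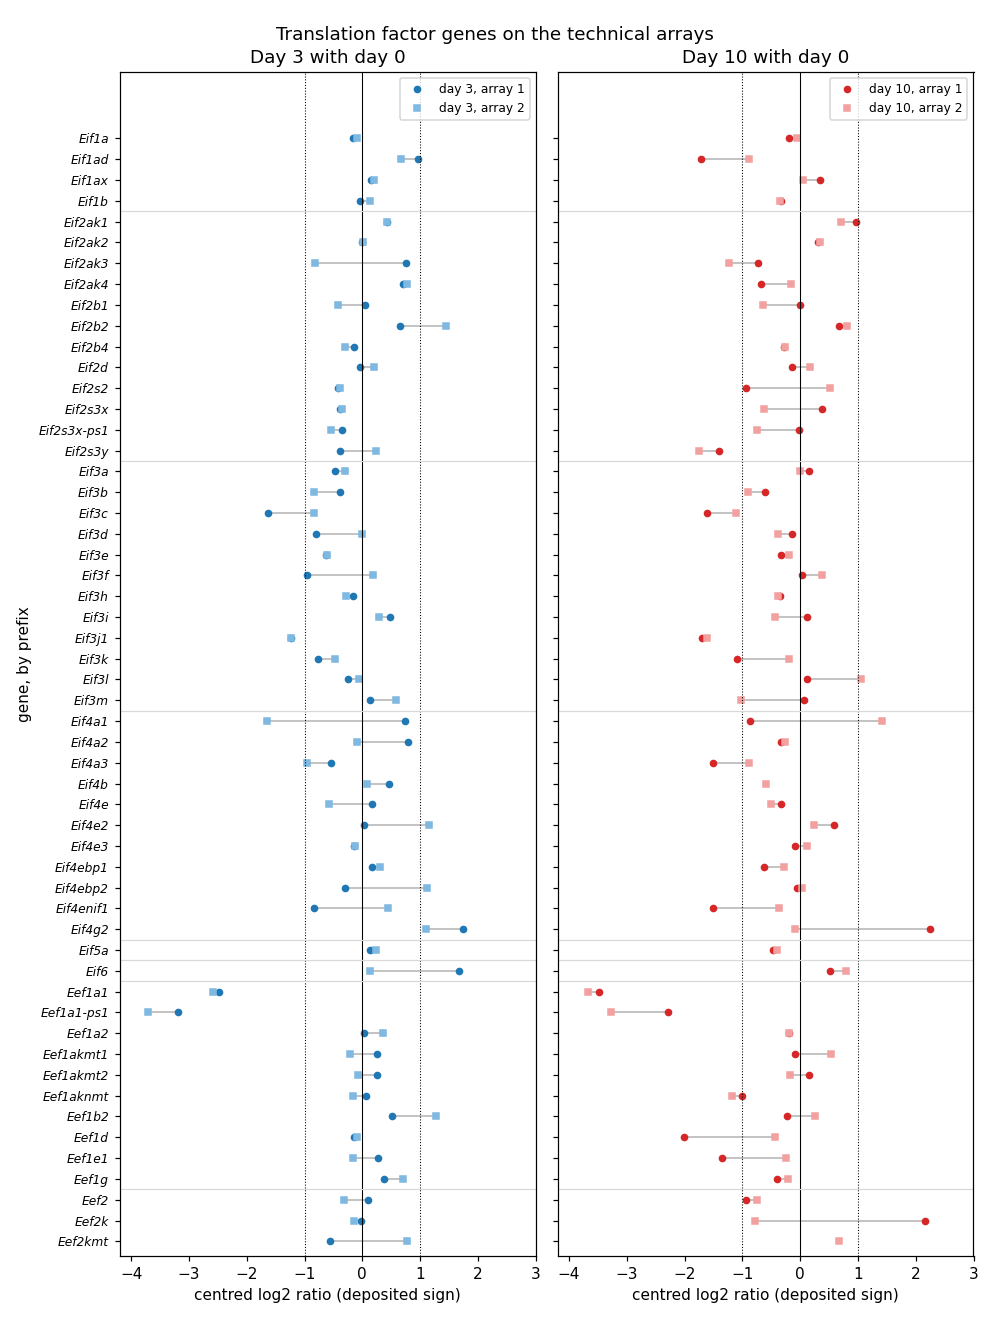
Centred log2 ratio of each of the 54 genes on the technical arrays (circles array 1, squares array 2, joined by a grey line; log2, deposited sign), on the horizontal axis, with day 3 on the left, day 10 on the right and dotted lines at the 2-fold limit. Eef1a1 and Eef1a1-ps1 lie below -2 on all 4 arrays, and most other genes lie between the dotted lines.

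The elongation factor eEF1A had the values farthest from 0. Eef1a1, which encodes the eEF1A form found in nearly all cells, was at -2.48 and -2.59 on the day 3 arrays and at -3.48 and -3.67 on the day 10 arrays. Its mean was -2.54 ± 0.08 at day 3 and -3.57 ± 0.14 at day 10, a ratio of 11.9-fold between the channels at day 10. The readings of a day lay close together and those of the days did not overlap. Eef1a1-ps1 was at -3.18 and -3.71 at day 3 and at -2.29 and -3.27 at day 10, so the order of the days was the other way round and the days overlapped.

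The single spots of Eef1a1 were less uniform than its mean. It has 4 spots from 2 GenBank entries, and all 7 readings at each day were negative, from -3.92 to -0.65 at day 3 and from -5.06 to -2.22 at day 10. At day 3 the spots of one entry averaged -3.19 and those of the other -2.13, while at day 10 they averaged -2.97 and -3.89. The entries therefore stood in opposite order on the days, and the difference of -1.04 between the days in the gene mean was found in the mean of the second entry and not in that of the first. The first entry's spots lacked values on different arrays. The first of them read -4.59 on its only day 10 array, below its day 3 readings. The other read -2.99 on its only day 3 array and -2.22 and -2.54 at day 10. All 3 readings of the pseudogene's 2 spots at day 3 and all 4 at day 10 were negative, between -3.78 and -2.13. Since a spot for one of these near-identical copies can bind RNA of the other, the value of each is uncertain.

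**Figure D2:**
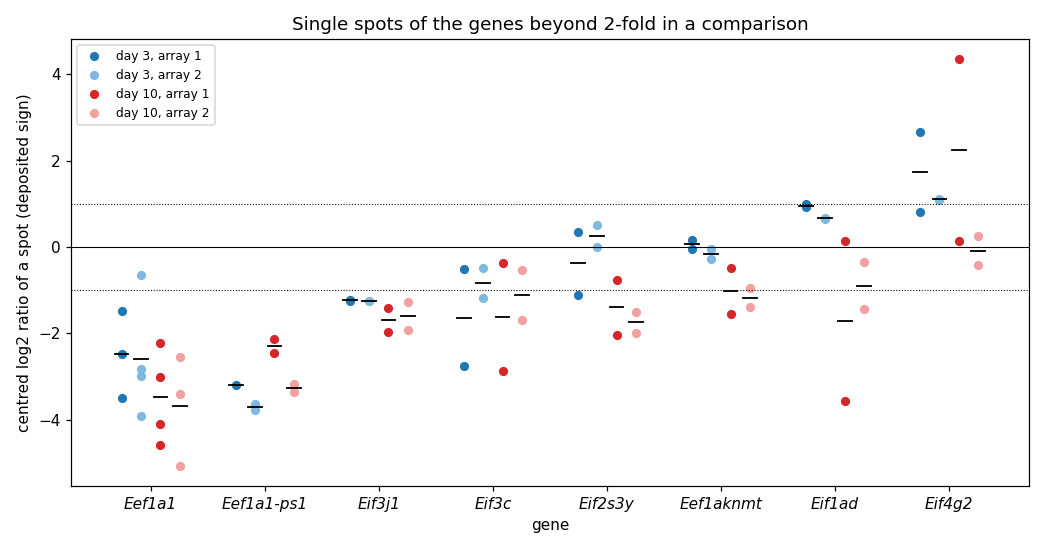
Centred log2 ratio of every single spot (points) of the 8 genes beyond 2-fold at a day or between days, with colours for the 4 arrays and a black bar for the array mean (log2, deposited sign; dotted lines at the 2-fold limit). The spots of Eif3j1 lie close together, while Eif4g2, Eif1ad and Eif3c each have readings far from their partner spot on the same array.

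Eef1a2, the eEF1A form of muscle and neurons, did not follow Eef1a1. It was at 0.03 and 0.36 at day 3 and at -0.19 on both day 10 arrays, well inside the limit. Its 2 entries gave 0.12 and 0.19 at day 3, but 0.42 and -0.80 at day 10, so its day 10 mean joins spots that stand on opposite sides. The spots of the second entry also differed, with -3.21 and 1.15 on day 10 array 1 and -0.24 and -0.91 on array 2. The reading of -3.21 was the only negative one of the gene on day 10 array 1, so the mean of that array depends on it.

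The promoters of Eef1a1 and Eif3j1, the protein-coding genes with negative calls at each day, and of Eif2s3y, with negative calls at day 10 and between the days, are shown to give the sequence context of these genes. Each runs from 150 bases before to 20 bases after the annotated RefSeq start (GRCm38.p6), 5′ to 3′ on the gene's own strand, so it holds upstream sequence and the first bases of exon sequence. The windows are chr9:78481705-78481874 on the minus strand for Eef1a1, chr2:122028430-122028599 on the plus strand for Eif3j1 and chrY:1010445-1010614 on the plus strand for Eif2s3y. Capitals mark GC boxes, the letters GGGCGG on either strand.
Eef1a1: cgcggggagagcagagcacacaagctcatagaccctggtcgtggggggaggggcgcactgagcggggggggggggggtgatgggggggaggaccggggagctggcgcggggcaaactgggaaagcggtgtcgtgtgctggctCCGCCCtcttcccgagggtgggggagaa
Eif3j1: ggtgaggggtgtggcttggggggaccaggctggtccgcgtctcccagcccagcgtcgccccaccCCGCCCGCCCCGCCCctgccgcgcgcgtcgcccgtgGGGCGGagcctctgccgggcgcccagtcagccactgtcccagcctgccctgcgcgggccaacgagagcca
Eif2s3y: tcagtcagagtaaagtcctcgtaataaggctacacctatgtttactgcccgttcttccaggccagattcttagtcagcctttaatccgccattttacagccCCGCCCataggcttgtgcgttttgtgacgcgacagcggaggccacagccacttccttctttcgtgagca
The Eif3j1 window holds 4 GC boxes, of which 3 overlap each other and 1 stands apart, and the Eef1a1 and Eif2s3y windows each hold 1.

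The RefSeq table held promoters of 41 of the 54 genes, 55 promoters in all, each from 250 bases before to 50 after the start. Searched on both strands of those 300 bases, GGGCGG was found in 32 of 41 genes, where 38.2% of all 27025 genes of the table have it. CACGTG, the E-box, was found in 10 genes, where the share over all genes is 8.09%, and CCGGAAGT, an ETS motif, in 8, where it is 4.31%. TATAAA was found in 4 (Eef2, Eif2s3y, Eif3b and Eif3f; 15.7% of all genes) and CCAAT in 13 (41.1% of all). None of these motifs contains another, though matches may overlap. A match is a run of letters and not a measured site, and no binding was measured here.

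The eEF1B subunits, which recharge eEF1A, were on the positive side or near 0 at day 3 and nearer to or on the negative side at day 10. Eef1b2, the catalytic beta subunit, was at 0.51 and 1.28 at day 3 and at -0.24 and 0.25 at day 10. Eef1g, the gamma subunit, was at 0.38 and 0.71 at day 3 and at -0.41 and -0.20 at day 10. The array means of the days do not overlap for either gene, and no value of either passed the limit on both arrays. For Eef1b2, however, day 10 array 2 joins spots at -0.51 and 1.02, while its day 3 spots ran from 0.50 to 1.28.

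Eef1d, the delta subunit, was at -0.14 and -0.09 at day 3 and at -2.01 and -0.44 at day 10. Its mean of -1.22 ± 1.11 at day 10 depends on 1 reading of -4.81, whose partner spot of the same entry had no value on that array. Its 2 GenBank entries also disagreed at day 3, with 0.32 and -0.55, so the near-zero gene mean joins spots on both sides. Eef1e1, which encodes a scaffold protein of the tRNA synthetase complex, was at 0.27 and -0.16 at day 3 and at -1.35 and -0.24 at day 10.

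Eef2, the translocation factor, had day 3 array means on both sides and was negative on both day 10 arrays. It was at 0.11 and -0.32 at day 3 and at -0.94 and -0.75 at day 10, a mean of -0.85 ± 0.14, inside the limit. The day 3 array means joined different spots. Spots of the third of its entries read 0.38 and 0.57 on array 1 and had no value on array 2. All the other spots with a value on array 1 were negative. The spots of the 3 GenBank entries of Eef2 averaged -0.75, -1.07 and -0.72 at day 10, so the entry means shared a side. Single spots did not all do so. Those of the first entry read 0.44 and -1.41 on day 10 array 1, and those of the third 0.26 and -0.45 on array 2. Eef2k, the gene of the inhibitory kinase of eEF2, was at -0.02 and -0.14 at day 3 and at 2.16 and -0.78 at day 10. Its day 10 arrays stood on opposite sides, and with a brightness percentile of 4.77 it was among the dimmest members.

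Of the methyltransferase genes, Eef1aknmt, which modifies the start and a lysine of eEF1A, was at 0.06 and -0.17 at day 3 and at -1.01 and -1.18 at day 10. Its mean at day 10 was -1.09 ± 0.12, just past the limit, and all 4 spot readings were negative, between -1.54 and -0.48. Eef1akmt1 (0.02 ± 0.33 and 0.22 ± 0.43 at day 3 and day 10), Eef1akmt2 (0.10 ± 0.23 and -0.01 ± 0.23) and, at day 3, Eef2kmt (0.10 ± 0.95) had array values on both sides. For Eef2kmt each day 3 array read a different one of its 2 spots, so that SD also holds the difference between spots. Eef2kmt had a value on 1 day 10 array alone, at 0.67.

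Among the factors that open the scanning complex, Eif1a was at -0.12 ± 0.05 at day 3 and -0.12 ± 0.10 at day 10, and Eif1ax at 0.17 ± 0.03 and 0.20 ± 0.22. Eif1b, a relative of the start codon selection factor eIF1, was at 0.05 ± 0.13 and -0.34 ± 0.01. These 3 genes had brightness percentiles of 88.6 to 97.8 and SDs of at most 0.22, so values near 0 were measured here with small technical error. Eif1ad, whose protein shares a domain with eIF1A and acts in ribosome assembly, was at 0.96 and 0.66 at day 3 and at -1.72 and -0.89 at day 10. Its 4 day 3 spot readings lay between 0.64 and 0.98, but those of day 10 ran from -3.57 to 0.14.

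Subunits of eIF2 differed from each other at day 10. Eif2s2, the beta subunit, was at -0.43 and -0.39 at day 3 and at -0.94 and 0.51 at day 10, where its spots on array 2 read 2.96 and -1.94. Eif2s3x, the gamma subunit gene of the X chromosome, was at -0.39 and -0.35 at day 3 and at 0.37 and -0.63 at day 10, and its pseudogene Eif2s3x-ps1 was at -0.45 ± 0.14 and -0.39 ± 0.51. All were negative on both day 3 arrays, and the day 10 arrays of Eif2s2 and Eif2s3x stood on opposite sides.

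Eif2s3y, the copy of the gamma subunit gene on the Y chromosome, was at -0.38 and 0.24 at day 3 and at -1.40 and -1.75 at day 10. Its day 3 spot readings stood on both sides of 0, from -1.10 to 0.50. The mean at day 10 was -1.57 ± 0.25, a ratio of 2.97-fold, and its 4 readings were negative, from -2.03 to -0.77. The Eif2s3x and Eif2s3y spots can share RNA, since the genes are close copies, yet their day 10 values did not overlap.

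Of the eIF2B subunits, Eif2b2 was on the positive side on all 4 arrays, at 0.66 and 1.45 at day 3 and at 0.67 and 0.81 at day 10, short of the limit on 3 of them. On day 3 array 1, however, its spots read 1.65 and -0.34. Eif2b4 was at -0.23 ± 0.11 and -0.27 ± 0.02, and Eif2b1 at -0.19 ± 0.34 and -0.32 ± 0.45. Eif2d, a factor that can deliver initiator tRNA without eIF2, was at 0.08 ± 0.17 and 0.01 ± 0.22.

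The eIF2 alpha kinases went to different sides. Eif2ak1, the heme-regulated kinase, was at 0.42 on both day 3 arrays and at 0.97 and 0.70 at day 10, though its day 10 spots ran from -0.37 to 1.77. Eif2ak4, the kinase that senses amino acid shortage, was at 0.70 and 0.77 at day 3 and at -0.68 and -0.16 at day 10, so that both days stood on opposite sides of 0. Eif2ak2, the kinase activated by double-stranded RNA, was near 0 at day 3 and at 0.32 ± 0.02 at day 10, but its 2 GenBank entries gave 0.30 and -0.29 at day 3. On day 10 array 1 the spots of the second entry read -0.97 and 1.15, a spread that the small SD of the gene mean does not show. Eif2ak3, the kinase of endoplasmic reticulum stress, had day 3 readings of 0.75 and -0.81 and day 10 readings of -0.73 and -1.23. None of the 4 was called at either day.

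More eIF3 subunits lay on the negative than on the positive side at each day. Of 12 measured, 8 were negative and 2 positive on both arrays at day 3, with a median of -0.40, and 7 were negative and 2 positive at day 10, with a median of -0.31. Over all genes 31.8% were negative and 32.9% positive at day 3, and 30.8% and 30.0% at day 10. Among the brightest genes the negative shares were 43.7% and 49.8%, and Eif3b, Eif3e, Eif3h and Eif3j1 had brightness percentiles of 81.8 to 91.4. Eif3j1 was at -1.24 and -1.24 at day 3 and at -1.70 and -1.60 at day 10, and its means were -1.24 ± 0.00 and -1.65 ± 0.06. The arrays of each day were nearly equal, the days did not overlap, and all 8 spot readings were at or below -1.22. Mouse has a close copy of this gene, Eif3j2, which a spot could also bind, so the value may hold both.

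Eif3c, a core subunit, was at -1.63 and -0.84 at day 3 and at -1.62 and -1.11 at day 10. Its 2 spots differed, with readings down to -2.86 on one and no lower than -1.19 on the other, and without the dimmest 25% of spots it was no longer called. Eif3b, the scaffold subunit, was at -0.60 ± 0.32 and -0.75 ± 0.21, Eif3e at -0.63 ± 0.01 and -0.26 ± 0.11, Eif3h at -0.22 ± 0.08 and -0.36 ± 0.03, and Eif3k at -0.62 ± 0.22 and -0.64 ± 0.64. These gene means were negative on all 4 arrays. The spots of Eif3k, however, read -1.32 and 0.95 on day 10 array 2, and those of Eif3h -0.69 and 0.01 on day 10 array 1.

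Eif3a, the largest subunit, was at -0.39 ± 0.13 at day 3 and 0.07 ± 0.11 at day 10. Eif3d (-0.40 ± 0.57 and -0.26 ± 0.18) had 1 day 3 array at 0.00, and Eif3f (-0.39 ± 0.81 and 0.21 ± 0.25) had day 3 arrays on both sides. Eif3l was at -0.16 ± 0.13 and 0.59 ± 0.66. Eif3i, at 0.38 ± 0.13 at day 3, and Eif3m, at 0.36 ± 0.32, were the subunits on the positive side on both day 3 arrays, and at day 10 both had arrays of opposite sign, with means of -0.16 and -0.48.

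No cap-binding protein or eIF4E partner was called. Eif4e, the cap-binding protein, was at 0.17 and -0.58 at day 3 and at -0.33 and -0.50 at day 10, with a brightness percentile of 10.7. On day 10 array 2 its spots read -1.91 and 0.91. Eif4e2, a cap-binding relative linked to repression, was positive on all 4 arrays at 0.60 ± 0.79 and 0.41 ± 0.24, though its spots on day 3 array 1 read 0.60 and -0.53. Eif4e3 was at -0.14 ± 0.01 and 0.01 ± 0.15. Eif4ebp1, which blocks eIF4E when growth signals are low, was at 0.18 and 0.31 at day 3 and at -0.63 and -0.29 at day 10. Eif4ebp2 was at 0.41 ± 1.01 at day 3, where 1 of its 4 readings stood apart at 2.68, and at -0.01 ± 0.06 at day 10. Eif4enif1, a shuttling protein that binds eIF4E, was at -0.19 ± 0.90 and -0.94 ± 0.80.

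Eif4g2 was the positive call of day 3, at 1.74 and 1.10 on the arrays and 1.42 ± 0.45 in the mean. Its 4 spot readings at day 3 were all positive, from 0.81 to 2.67. At day 10 its arrays were at 2.24 and -0.08, and the first rests on 1 spot at 4.35 beside a partner spot at 0.13. The helicase gene Eif4a1 had the largest array difference of all members at day 3, with 0.74 and -1.65, and at day 10 it had -0.88 and 1.42. Eif4a2, its close relative, was at 0.36 ± 0.62 and -0.30 ± 0.05. Eif4a3, a helicase of the exon junction complex rather than of initiation, was negative on all 4 arrays, at -0.76 ± 0.29 and -1.20 ± 0.44. Eif4b, the cofactor of the helicase, was at 0.27 ± 0.26 at day 3 with the lowest brightness percentile of the set, 2.03, and had a value on 1 day 10 array alone, at -0.60.

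Eif5a, the hypusine-bearing factor that eases difficult peptide bonds, was at 0.13 and 0.24 at day 3 and at -0.47 and -0.40 at day 10. It was bright, at percentile 95.4, and the small values of each day did not overlap. Eif6, which keeps ribosomal subunits apart, was positive on all 4 arrays, at 1.67 and 0.14 at day 3 and at 0.52 and 0.79 at day 10, and was short of the limit. Its day 3 spots ran from -1.12 to 2.90, so its sign there varied between spots.

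Day 10 was then set against day 3 through the day 0 channel, assuming 1 common day 0 RNA, a point on which the labels are silent. A call needed each of the 4 array differences to reach at least 1 in size with a shared sign. Eif1ad and Eif2s3y were called on the negative side, 2 of 52 members against 1.72% of all genes, and none on the positive side, against 1.82%. Eif1ad differed by -2.11 ± 0.62 (SD of both days' arrays combined, here and for all differences below) with single differences from -2.67 to -1.56. At day 10, 1 of its spots read -3.57 and -1.43 and the other 0.14 and -0.35. The latter read 0.98 and 0.64 at day 3, so the size of the Eif1ad difference depends on the spot. Eif2s3y differed by 2.84-fold on the negative side (SD 0.50, log2), with single differences from -1.99 to -1.02, and with the brightness trend removed it was no longer called. Its day 3 spot readings ran from -1.10 to 0.50, and 1 spot read -1.10 on day 3 array 1 but -0.77 on day 10 array 1.

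Below the limit the signs were again uneven. All 4 differences were negative for 19 of 52 members, where 22.7% of all genes had this, and all positive for 6, where 20.7% had. The median difference was -0.20 over the members and -0.01 over all genes. Of the 10 Eef1 genes, 7 had 4 negative differences and none 4 positive ones, with a median of -0.85. Eef1b2 differed by -0.88 ± 0.64, Eef1g by -0.85 ± 0.28, Eef1d by -1.11 ± 1.11, Eef1e1 by -0.85 ± 0.84 and Eef1a1 by -1.04 ± 0.16. Eef1d and Eef1e1 had SDs nearly as large as their difference. The Eef1a1 difference depended on which spots were used: it was -1.76 and passed the limit with spots measured on all 4 arrays, and was -0.79 with the median of its spots. Eef2 differed by -0.74 ± 0.33.

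The eIF3 subunits showed no such tilt between the days. Their median difference was -0.07, with 4 of 12 negative and 3 positive in all 4 differences, against 22.7% and 20.7% of all genes. Eif3e (0.36 ± 0.11) and Eif3a (0.46 ± 0.17) were on the positive side, and Eif3j1 (-0.41 ± 0.06) and Eif3i (-0.55 ± 0.41) on the negative. Of the kinases, Eif2ak4 differed by -1.16 ± 0.37, while Eif2ak1 (0.41 ± 0.19) and Eif2ak2 (0.32 ± 0.03) were positive in all 4 differences.

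**Figure D3:**
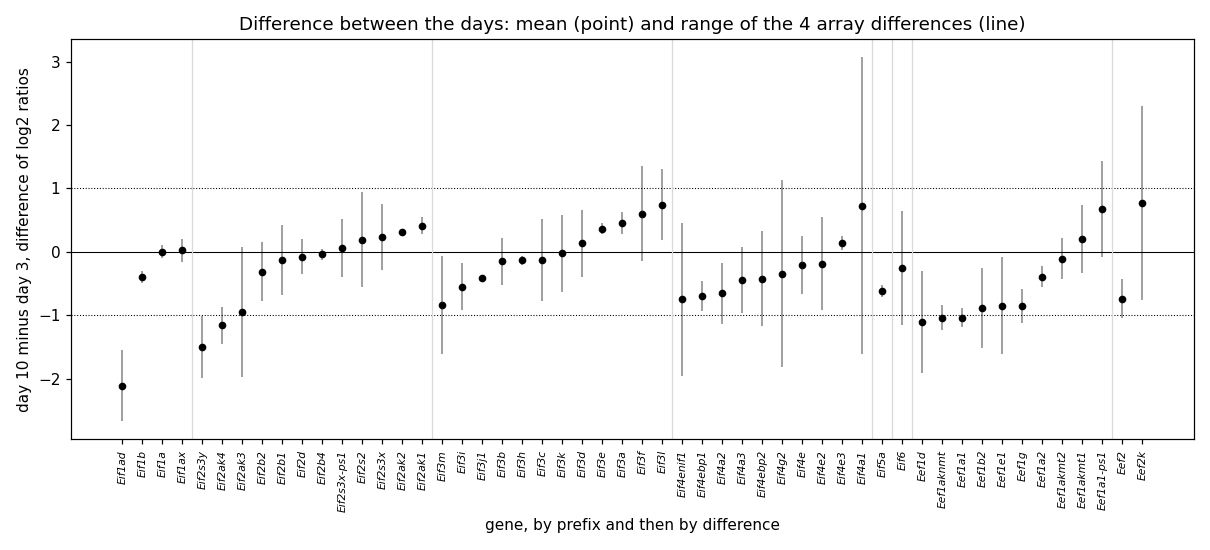
Day 10 minus day 3 difference of the centred log2 ratios for the 52 genes with values on all 4 arrays, ordered by prefix and then by difference; points are means, lines span the 4 array differences, and dotted lines mark the 2-fold limit. Eif1ad and Eif2s3y have all 4 differences below -1, and most Eef1 genes lie below 0.

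Both days share the day 0 channel, so values of the days are given side by side and not correlated. Both day 3 arrays were positive and both day 10 arrays negative for 6 of 52 members (Eef1a2, Eef1g, Eif1ad, Eif2ak4, Eif4ebp1 and Eif5a), where 7.68% of all genes had this pattern. The reverse pattern was found for 1, Eif3l, against 6.27% of all genes.

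Other genes of translation were read on the same arrays. Of 17 cytosolic aminoacyl-tRNA synthetase genes measured at day 3, which charge tRNAs with amino acids, 8 were positive and 5 negative on both arrays, with a median of 0.30, and Iars was called at 1.75 ± 0.23. Over all genes 32.9% were positive, 31.8% negative and 1.77% called on the positive side, so the negative count lay near its share. At day 10, 8 of 15 were negative and 2 positive, with a median of -0.18 and no call, against 30.8% and 30.0% of all genes. Between the days 7 of 14 had 4 negative differences and none 4 positive ones, with a median of -0.45, against 22.7% and 20.7% of all genes.

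Factors of termination, recycling and poly(A) binding had medians of 0.00 and -0.03 over 14 genes. Of these, Pabpc4, a poly(A) binding protein gene, was called at 1.47 ± 0.41 and the start site helper Mcts2 at 1.14 ± 0.11, both at day 3, when 1.77% of all genes were called on that side. Among 17 regulators, Atf4, the transcription factor whose translation rises when eIF2 alpha is phosphorylated, was called at day 3 at -1.40 ± 0.36, where 1.03% of all genes were called negative, and its day 10 arrays were at 1.11 and -0.42. Impact, which restrains the kinase encoded by Eif2ak4, was at -0.11 ± 0.05 at day 3 and was called at day 10 at 1.87 ± 0.94, with a difference of 1.97 ± 0.95 between the days, and 2.15% of all genes were called positive at day 10. Mitochondrial factors had 2 measured genes, Gfm1 at 0.57 ± 0.41 and 0.79 ± 0.44 and Gfm2 at 0.10 ± 0.23 and 1.24 ± 0.80, with no call.

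The technical arrays set how far these values can be trusted. The median difference between the arrays of a day was 0.33 at day 3 and 0.33 at day 10 for the members, against 0.39 and 0.52 over all genes, and 8 members differed by 1 or more at each day. Across the 54 members at day 3 the arrays correlated with r = 0.66, and without Eef1a1 and Eef1a1-ps1 with r = 0.37. At day 10 these were 0.60 over 52 members and 0.39. These correlations run across genes that share the arrays and the RNA and are a description only. With the members split at their median brightness, the brighter ones differed between day 3 arrays by a median of 0.19 and the dimmer ones by 0.43, and at day 10 by 0.30 and 0.35.

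**Figure D4:**
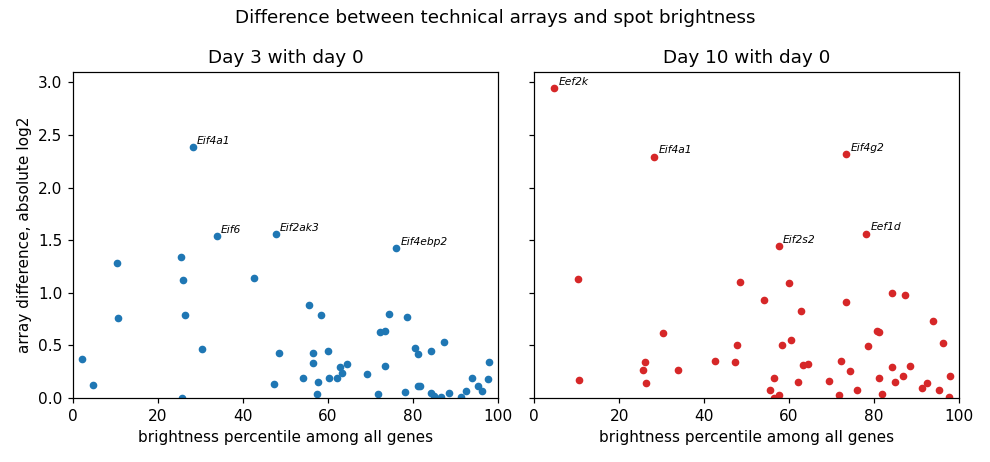
Absolute difference (log2) between the technical arrays of a day for each member against its brightness percentile among all genes, for day 3 on the left and day 10 on the right; genes that differ by over 1.4 are named. Eif4a1 differs by more than 2 at both days, and Eif4g2 by 2.32 at day 10 at a brightness percentile of 73.5.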

How the data were processed

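The values deposited by the authors, one for a spot on an array, were read as log2 ratios of the channels, per the labels' description of the channels and from the values. No source used here describes scanning, background correction or filtering. Of the values, 59.3% to 62.0% per array were ratios of whole numbers up to 10000 within 6e-10 (log2). Their size gave recovered brightness, a lower bound of signal for these ratios. Values of no such ratio count as bright, and their order among themselves does not measure signal. The 4 arrays carried 37471 to 41386 values each, and 6 to 10 of the 120 member spots lacked one.

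Spots were named by the platform's annotation. 588 spots with several symbols and 480 control spots were left out. The median over all non-control spots of an array was subtracted from its values, spots of a gene were averaged, and calls were made across all genes at 1 (log2). All members called were to be named, with a list standing for each step of translation and each prefix's extremes, and every other member is described too. Members, lists and this set were chosen with earlier results of these data known, and the counts of signs whatever the size were added after seeing the values. Promoters came from RefSeq. The steps were tested on simulated data. Python 3.11.15, numpy 2.4.6, pandas 2.3.3 and matplotlib 3.10.9 were used. Alternatives were no centring, spot medians, complete spots, other limits, removal of dim spots or of a brightness trend in 50 bins, and each array left out.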

Additional observations from a re-analysis of the deposited data

Results flagged for a closer look

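The members below had both day 3 arrays on one side of 0 and both day 10 arrays on the other, and these differences between the days were not tested, since each day is 1 RNA pair. Day 10 minus day 3 was -2.11 for Eif1ad, -1.16 for Eif2ak4, -0.85 for Eef1g, -0.70 for Eif4ebp1, -0.62 for Eif5a and -0.39 for Eef1a2, each positive at day 3 and negative at day 10. It was 0.74 for Eif3l, the gene with the reverse order. These are 6 and 1 of 52 members, and over all genes 7.68% and 6.27% show these patterns, so a change of side was about as frequent among the members as among all genes. Eif1ad alone among them passed the limit in all 4 differences. Eef1g and Eif5a were bright, at percentiles 97.9 and 95.4. Eef1a2 rests at day 10 on entries at 0.42 and -0.80, and the spots of the second read -3.21 and 1.15 on day 10 array 1. Spots of an array also stood on opposite sides for Eif4ebp1 (0.71 and -1.96, day 10 array 1) and Eif3l (-1.28 and 0.78, day 3 array 1). The same held for Eif1ad (-3.57 and 0.14, day 10 array 1) and Eif2ak4 (-0.44 and 0.12, day 10 array 2).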

How the results depend on the processing

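Calls of Eef1a1 and Eef1a1-ps1 held in all 10 alternatives at each day, and no call turned its sign. By construction a call cannot be lost at 1.5-fold, with the limit on the mean alone or with an array left out. Those alternatives therefore do not test it. All the other calls were lost at 4-fold, Eif3c also without the dimmest 25% of spots and Eif2s3y between the days also without the brightness trend. At 4-fold the counts were 0 positive and 2 negative at day 3 (0.124% and 0.0511% of all genes). They were 0 positive and 2 negative at day 10 (0.167% and 0.0530%), and 0 negative between the days (0.190%). At 1.5-fold they were 4 positive and 5 negative of 54 at day 3 (6.33% and 5.33% of all genes), 2 and 11 of 52 at day 10 (7.42% and 6.53%), and 5 negative between the days (5.28%). With the limit on the mean alone they were 2 positive and 4 negative at day 3 (4.67% and 3.30% of all genes), 1 and 9 at day 10 (6.11% and 4.54%) and 6 negative between the days (7.89%). Complete spots gave 2 positive at day 3 (1.83% of all genes), as did removal of the dimmest spots (1.90%), and complete spots gave 3 negative between the days (1.91%), Eef1a1 among them. With the brightness trend removed 1 was negative between the days (1.80%). The medians moved to -0.12 at day 3 and -0.13 between the days with complete spots, to -0.32 at day 10 and -0.25 between the days without the dimmest spots, and to -0.24 at day 10 without the trend. The cause of these changes was not tested, other than the limits, which set the counts by construction.

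With 1 array of a day left out the other decides alone, so counts are larger by construction. At day 3 there were 2 to 5 positive calls (7.24% to 8.23% of all genes) and 4 to 4 negative ones (5.51% to 6.13%), with medians of -0.08 to -0.02 and 28 to 29 of 54 members on the negative side (48.9% to 49.6%). At day 10 there were 2 to 2 positive (9.15% to 10.8%) and 8 to 12 negative calls (7.02% to 9.59%), with medians of -0.31 to -0.26 and 36 to 38 members on the negative side (49.4% to 50.7%). Between the days there were 0 to 1 positive (5.29% to 7.27%) and 4 to 6 negative calls (4.72% to 8.18%), medians of -0.34 to -0.19 and 25 to 29 members with every difference negative (34.1% to 39.7%). No paired analysis was possible because the labels give no replicate numbers and each day is 1 RNA pair.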
